A study of Homo sapiens with 9 samples.

Results

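The transcriptome of rimonabant-treated MDA-MB-231 cells was compared with that of vehicle-treated cells in 6 of the 9 RNA-seq libraries of the series, 3 per treatment. MDA-MB-231 is an established human triple-negative breast cancer line with a mesenchymal shape. Vehicle cells received DMSO, rimonabant cells received rimonabant, and no other agent or genetic change is named for either group. The dose and duration of rimonabant in the sequenced cells are not given in the sources used here. The other 3 libraries, from cells treated with the rimonabant derivative TXX-1-10, are given only as values beside a few genes. The gene lists of the 6 libraries have unequal lengths, from 4237 to 27615 genes, because each deposited list ends early. Members were therefore the 4237 genes listed for all 6 libraries and, as a wider set, the 9397 genes found in the other 5 lists once that of rimonabant replicate 1, the shortest, is set aside. A gene missing from a list was treated as not measured, not as 0. All lists follow the same gene order, which runs closely from many counts to few (rank correlation -0.987 over the 5 lists). Both sets therefore hold the more abundant genes. Shares and counts of tested genes given below describe those genes and not the whole transcriptome.

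Rimonabant is an antagonist and inverse agonist of the cannabinoid receptor CB1, encoded by CNR1, a G protein-coupled receptor best known from the nervous system and fat tissue. It is a lipophilic, weakly soluble drug that was once used against obesity. In this study it served as the parent compound of TXX-1-10, so its comparison with vehicle addresses which genes respond to the parent drug itself.

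The lists held 17087433 to 18115258 counts, apart from the short list of rimonabant replicate 1 with 14154805. Rimonabant replicate 1 stood apart. Against the other rimonabant replicates, its short genes were higher (median log2 ratio 0.20 in the shortest quintile of genes) and its long genes lower (-0.15 in the longest quintile), and the Spearman rho of its log2 ratio with gene length was -0.697. The rho was between -0.02 and 0.03 in the vehicle libraries. The chi-square per degree of freedom of its counts against the other rimonabant replicates was 42.2 and 24.3, and 6.75 between those. The wider set leaves this library out, and most gene groups are given with and without it. Marker levels mostly matched the label. VIM (280 FPKM in vehicle), CD44, EGFR, AXL and 6 further markers of the line all passed the filter. Of 8 luminal and hormone receptor genes taken as absent from the line, not all were. ESR1 had 3 and 7 counts in a vehicle and a rimonabant library with long lists, and CDH1 had 0 in both. However, 2 of the 8, KRT19 among them, passed the filter in all 6 lists. EPCAM read 5.37 and 4.82 FPKM, and GATA3 1.24 and 1.45 FPKM, in the vehicle libraries that list them. Of 19 markers of leukocytes, endothelium, fibroblasts and fat cells, none was in all 5 of the longer lists. Vehicle replicate 1 listed 16 of them with 377 counts in all, 2 at 0, and rimonabant replicate 3 listed 17 with 254 counts, 4 at 0. The highest in vehicle was the endothelial receptor gene KDR, at 1.25 and 0.991 FPKM in the vehicle libraries that list it.

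Among the tested genes, which are the more abundant ones, rimonabant moved many by small steps and few by large ones. With edgeR's quasi-likelihood test, 2182 of 4236 tested genes of the 6 lists (51.5%) had an adjusted p under 0.05, 1049 higher (24.8%) and 1133 lower (26.7%). Only 48 of them (1.13%) also changed at least 2-fold, 22 higher (0.519%) and 26 lower (0.614%). The fold change stayed within 1.5-fold for 93.9% of the genes. In the wider set 5674 of 9364 genes (60.6%) passed the adjusted p, 2823 higher (30.1%) and 2851 lower (30.4%). There, 140 genes (1.5%) changed at least 2-fold, 67 higher (0.716%) and 73 lower (0.78%), and 93 of these 140 were not in the list of rimonabant replicate 1. The split between higher and lower depended on scaling. With the sum of counts as library size, 1440 genes were higher and 800 lower in the 6 lists, and 3732 higher and 2086 lower in the wider set. Of the 48 genes, 42 were also called without rimonabant replicate 1, and BTG1, FAM102A, FN1, FOSL2, PTPRJ and SEMA6B were not. No gene that passed in both sets changed sign. Of the 140 genes, 132 were protein coding. Below, "rose" and "fell" mean an edgeR adjusted p under 0.05, ± is a standard error on a log2 fold change, and genes absent from rimonabant replicate 1 carry the mark "5 libraries". Among all tested genes 24.8% rose and 26.7% fell in the 6 lists, and 30.1% and 30.4% in the wider set. Counts of list members near these shares say nothing particular about the members. The study's methods say of cell experiments in general that they were repeated, and whether the libraries of a group came from separate cultures is not stated for the RNA-seq, so the p-values measure only the spread between these samples, which may be technical.

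**Figure D1:**
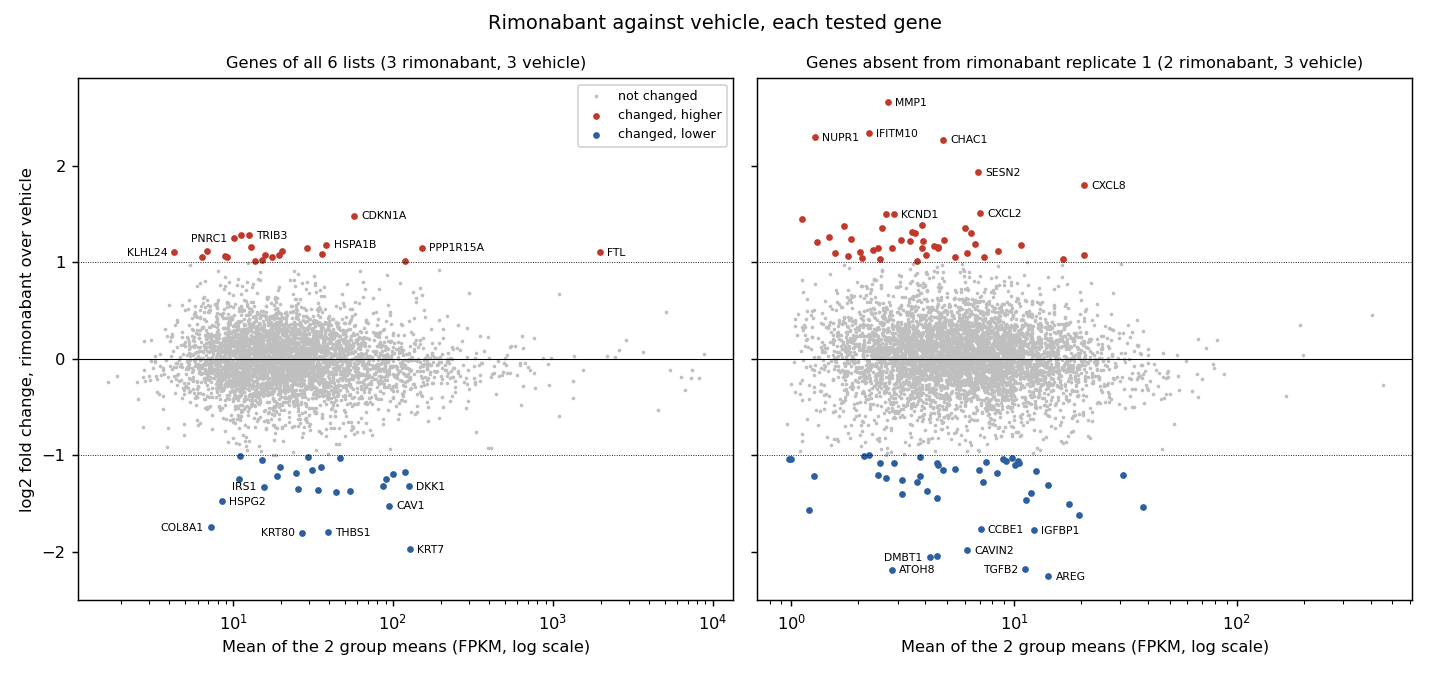
Each point is a tested gene, with its mean level (FPKM, log scale) on the x axis and its log2 fold change, rimonabant over vehicle, on the y axis; the left panel holds the genes of all 6 lists and the right panel those absent from rimonabant replicate 1. Dotted lines mark 2-fold, coloured points passed both thresholds, the largest changes are labelled where there is room, and most points lie close to 0 at every level.

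KRT7, KRT80, THBS1, COL8A1 and CAV1 had the largest falls among the genes of all 6 lists. KRT7, a simple-epithelium keratin (ENSG00000135480, GRCh38 chromosome 12, 52232520 to 52252186), had FPKM of 201, 202 and 208 in vehicle and 56.6, 48.1 and 50.9 under rimonabant. It fell 3.93-fold (log2 fold change -1.97 ± 0.068, edgeR adjusted p = 1.49e-07), and the groups lay far apart. KRT80, a keratin of the cell border, went from 40.9, 43.7 and 41.1 FPKM to 12.2, 12.7 and 11.1 (-1.80 ± 0.063). THBS1, the matrix glycoprotein thrombospondin-1, read 61.4, 59.5 and 60.9 FPKM in vehicle and 16.4, 18.4 and 17.5 under rimonabant, a 3.48-fold fall. COL8A1, a short-chain collagen, fell 3.35-fold, from between 10.9 and 11.3 FPKM to between 3.11 and 3.58. CAV1, the coat protein of caveolae, read 145, 140 and 135 FPKM in vehicle and 49.7, 48.9 and 47.2 under rimonabant (-1.53 ± 0.053, edgeR adjusted p = 1.49e-07). Vehicle and rimonabant libraries without overlap were required by the rule that picked these 5 genes.

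HSPG2, which encodes the basement membrane proteoglycan perlecan, read 11.8, 12.6 and 13.2 FPKM in vehicle and 3.18, 5.47 and 4.86 under rimonabant, with replicate 1 the lowest; its transcript is long. TGM2, the protein cross-linking enzyme transglutaminase 2, fell 2.61-fold, from 63, 63.7 and 63.9 FPKM to 24.6, 23.6 and 24.8. AKAP12, a scaffold for protein kinase A, fell 2.58-fold, GPRC5A, an orphan receptor, 2.56-fold, and MYL9, a regulatory light chain of non-muscle and smooth muscle myosin, 2.55-fold. IRS1, the insulin receptor substrate, fell 2.51-fold, from between 21.7 and 23 FPKM to between 7.67 and 10.4. DKK1, a secreted antagonist of Wnt signalling, read 186, 180 and 175 FPKM in vehicle and 76.8, 66.8 and 72.7 under rimonabant. These 7 genes were picked by the same rule. Groups did not overlap in 61.1% of all tested genes in the 6 lists and 72.3% in the wider set.

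CDKN1A, GABARAPL1 and TRIB3 had the largest rises among the genes of all 6 lists. CDKN1A, the cyclin-dependent kinase inhibitor p21 (ENSG00000124762, chromosome 6, 36676460 to 36687339), read 30, 30 and 30.4 FPKM in vehicle and 88.2, 80.5 and 83.9 under rimonabant. It rose 2.79-fold (1.48 ± 0.053, edgeR adjusted p = 1.59e-07), and the groups lay far apart. GABARAPL1, a ubiquitin-like protein of the autophagosome membrane, rose 2.43-fold, from 6.46, 6.32 and 6.85 FPKM to 16, 15.5 and 16.2. TRIB3, a pseudokinase induced by ATF4, rose 2.43-fold, from 7.64, 6.99 and 7.34 FPKM to 19.8, 17.1 and 16.5. PPP1R15A, the stress-induced phosphatase subunit GADD34, was already abundant and went from 94.4, 91.7 and 95.9 FPKM to 218, 200 and 208. FTL, the ferritin light chain, rose 2.15-fold from a mean of 1242 FPKM, although its processed pseudogenes can share its reads. HSPA1B, an inducible chaperone with a near-identical copy in HSPA1A, rose 2.27-fold.

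The 12 largest rises also held PNRC1, a nuclear receptor coregulator (2.37-fold), NDRG1, a stress-induced gene (2.22-fold), and MSMO1, a sterol-C4-methyl oxidase (2.22-fold). The others were SEL1L3 (2.17-fold), UPP1, uridine phosphorylase (2.16-fold), and KLHL24, a ubiquitin ligase adaptor (2.15-fold). All 24 of these rises and falls remained at least 2-fold without rimonabant replicate 1.

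**Figure D2:**
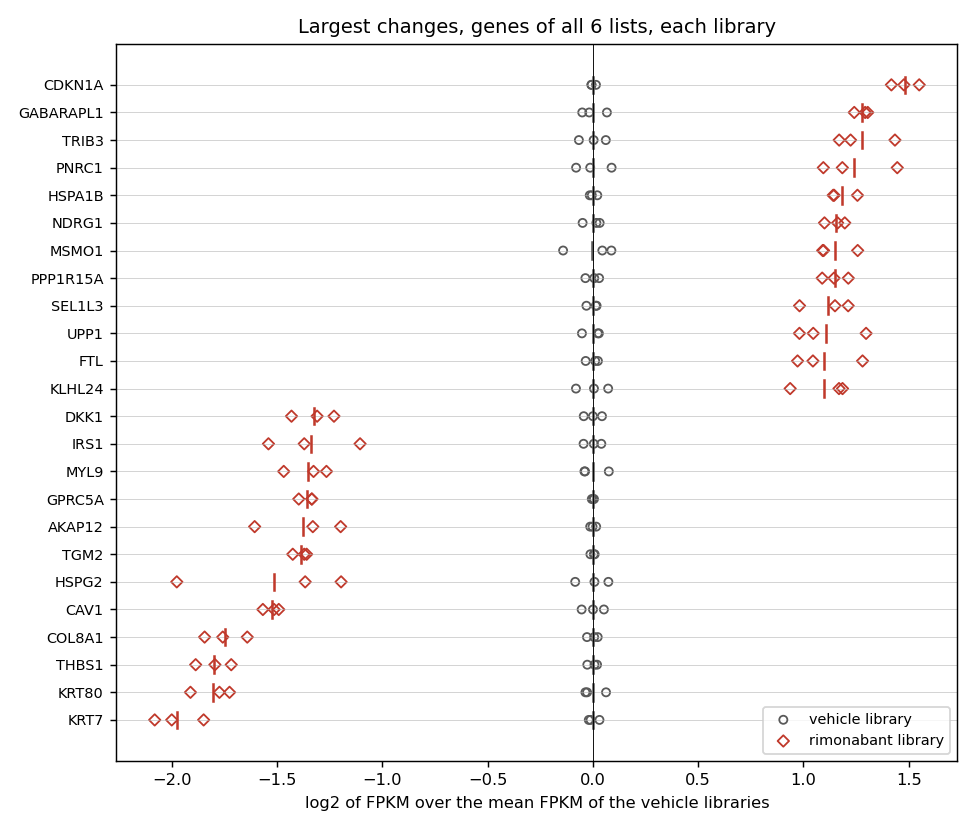
The x axis gives each library's log2 ratio of FPKM to the vehicle mean for the 12 largest falls and 12 largest rises among genes of all 6 lists, with circles for vehicle, diamonds for rimonabant and bars at the group means. The 3 vehicle libraries cluster at 0, and rimonabant libraries lie from about -2 for KRT7 to about 1.5 for CDKN1A.

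Of the 5128 tested genes that rimonabant replicate 1 does not list, 93 changed at least 2-fold, 46 higher and 47 lower. AREG, which encodes the EGFR ligand amphiregulin, read 25.2, 24.1 and 21.6 FPKM in vehicle and 4.97 and 4.91 under rimonabant (-2.26 ± 0.097, edgeR adjusted p = 8.93e-19). TGFB2, the growth factor TGF-beta 2, fell 4.53-fold, from 19.3, 17.9 and 18.1 FPKM to 4.13 and 3.99. SCNN1A, a subunit of the epithelial sodium channel, fell 4.13-fold, from between 6.97 and 7.72 FPKM to 1.66 and 1.87. CAVIN2, a caveola coat protein, read 9.7, 9.81 and 10 FPKM and then 2.68 and 2.29. IGFBP1, an IGF-binding protein, fell 3.42-fold, from 19.8, 17.9 and 19.2 FPKM to 5.56 and 5.52, whereas the neighbouring gene IGFBP3 did not pass the test (0.08 ± 0.060). The transcription factor ATOH8 fell 4.56-fold, DMBT1 4.16-fold and CCBE1 3.40-fold.

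In the other direction, MMP1, the interstitial collagenase, read 0.713, 0.648 and 0.855 FPKM in vehicle and 4.53 and 4.82 under rimonabant, a 6.31-fold rise and the largest of the wider set (2.66 ± 0.156). CHAC1, a glutathione-degrading enzyme, rose 4.81-fold, from 1.48, 1.92 and 1.55 FPKM to 7.57 and 8.34, and NUPR1, a stress-induced chromatin protein, rose 4.90-fold from under 1 FPKM. SESN2, a sestrin that restrains mTORC1, read 2.75, 2.96 and 2.89 FPKM and then 10.8 and 11. CXCL8, the neutrophil chemokine interleukin-8, rose 3.47-fold, from 9.24, 9.33 and 9.09 FPKM to 32.9 and 31.2. CXCL2, a related chemokine, rose 2.84-fold, IFITM10 5.04-fold and the potassium channel gene KCND1 2.83-fold. The smallest standard error in this group was that of CXCL8.

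**Figure D3:**
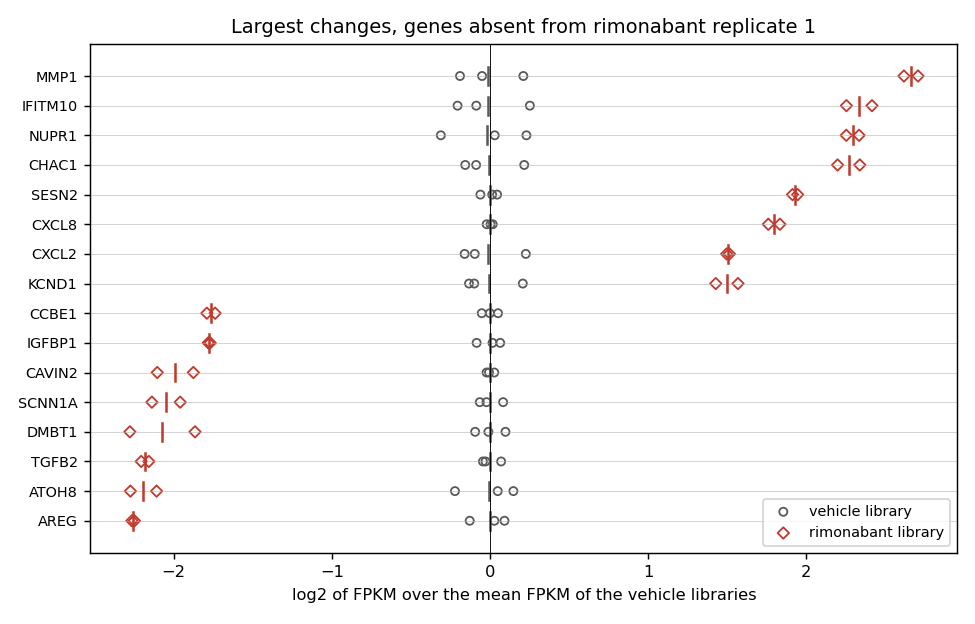
The x axis gives each library's log2 ratio of FPKM to the vehicle mean for the 8 largest falls and 8 largest rises among genes absent from rimonabant replicate 1, with circles for the 3 vehicle libraries, diamonds for rimonabant replicates 2 and 3 and bars at the group means. The 2 rimonabant libraries lie in every row on 1 side of all vehicle libraries, as the rule that picked these genes required.

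CXCL8, CXCL2 and AREG lie within 1 stretch of chromosome 4. CXCL8 starts at 73740506 and AREG at 74445134, and 5 genes in this stretch were tested. The neutrophil chemokine genes CXCL8 and CXCL2 rose, AREG fell, and CXCL1 and MTHFD2L between them had log2 fold changes of 0.08 ± 0.10 and -0.06 ± 0.10 that did not pass. CXCL3, in the same chemokine family, was not in enough lists to test, with 59 and 54 counts in vehicle and 205 and 212 under rimonabant.

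Keratins form the intermediate filaments of epithelial cells, plakins and plakophilins anchor them, and lamins line the nucleus. In the 6 lists 11 of 13 tested members of this group fell and 1 rose (median -0.49, against -0.02 over all tested genes), and 14 of 16 fell in the wider set. All 5 tested keratin genes of chromosome 12 fell: KRT80, KRT7, KRT81 (-1.18 ± 0.077), KRT8 (-0.74 ± 0.062) and KRT18 (-0.76 ± 0.088). KRT8 and KRT18 overlap on opposite strands, and KRT81 has the close paralog KRT86, so their reads can be shared. KRT19, on chromosome 17, fell by 0.71, the desmosomal PKP3 and PKP2 fell by 0.82 and 0.75 (5 libraries), and the exceptions were KRT10 (0.41 ± 0.079) and DSP (0.35 ± 0.068, 5 libraries).

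The extracellular matrix list, with 42 collagens, laminins, proteoglycans and matrix enzymes, had 15 falls and 5 rises among 22 tested genes (median -0.65), and 22 falls and 7 rises among 31 in the wider set. FN1, fibronectin, read a mean of 62.7 FPKM in vehicle and 30.7 under rimonabant (-1.03 ± 0.13), and lost its 2-fold call without rimonabant replicate 1. LOXL2, a collagen cross-linking enzyme, fell from 52 to 26.3 FPKM (-0.98 ± 0.053). COL12A1 fell by 0.96, LAMA5 by 0.86, AGRN by 0.69, and the paired basement membrane collagen genes COL4A2 and COL4A1 by 0.69 and 0.68. The membrane collagen gene COL13A1 fell as well (-0.70 ± 0.061). TNC, tenascin-C, rose by 0.76 (5 libraries). Matrix genes thus mostly fell, but not as a block.

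Of the matrix proteases and inhibitors, 4 of 11 tested fell and 2 rose, against 26.7% and 24.8% of all tested genes. In the wider set 6 of 16 fell and 5 rose, against 30.4% and 30.1%. PLAUR, the urokinase receptor, rose from 22.8 to 41.2 FPKM (0.85 ± 0.063), whereas ADAM9 fell from 71.6 to 41.8 FPKM (-0.78 ± 0.053) and PLAT, tissue plasminogen activator, by 0.44. In the wider set MMP1, SERPINB8 (0.83) and SERPINE2 (0.74) rose.

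Caveolae are flask-shaped pits of the plasma membrane rich in cholesterol, coated by caveolins and cavins. All 6 tested members fell, and all 7 in the wider set. Beside CAV1 and CAVIN2, the falls were smaller in CAV2 (-0.39 ± 0.060), CAVIN3 (-0.37 ± 0.094), EHD2 (-0.32 ± 0.055), PACSIN2 (-0.29 ± 0.050) and CAVIN1, which remained at 163 FPKM (-0.25 ± 0.055).

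Actin genes and targets of the serum response factor SRF build the contractile cytoskeleton. Of 31 tested members 24 fell and none rose (median -0.41), and 32 of 40 fell and 1 rose in the wider set. MYL9 led the list, and the falls included VCL, vinculin (-0.77 ± 0.071), CNN2 (-0.71 ± 0.059), ACTN4 (-0.65 ± 0.055) and TLN1 (-0.62 ± 0.076). ACTB itself, beta-actin, read 1312 FPKM in vehicle and 871 under rimonabant (-0.59 ± 0.077). TAGLN, transgelin, fell by 1.08 and MYLK, myosin light chain kinase, by 0.85 (5 libraries).

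Integrins moved unevenly. ITGB4 and ITGA10 fell by 1.24 and 1.08 (5 libraries), ITGA6 by 0.50 and ITGAV by 0.34, and ITGA3, the most abundant alpha chain, had 95.6 FPKM in vehicle and 97.7 under rimonabant and did not pass. ITGA2 rose by 0.33, a call lost when any library other than rimonabant replicate 1 was left out. Of 21 tested focal adhesion genes 9 fell and 3 rose (10 and 3 of 24 in the wider set), with TNS3 (-0.82), ENAH (-0.71) and PTK2, focal adhesion kinase (-0.36), among the falls and GIT1 (0.45) and TES (0.42) among the rises. Of the epithelial and mesenchymal markers, CLDN7 and SNAI2 fell by 0.65 and 0.56 (5 libraries), and VIM did not pass with all 6 libraries (-0.18 ± 0.083) but fell without rimonabant replicate 1 (-0.28).

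YAP and its partners TEAD1 to TEAD4 drive genes of growth and adhesion in spread cells. Of 25 tested genes of the list, which holds targets and also the gene of YAP itself, 16 fell and 2 rose (median -0.25). In the wider set 22 of 30 fell. Beside THBS1 and TGFB2, the falls included CRIM1, from 140 to 61 FPKM (-1.20 ± 0.072), FJX1 (-0.80), EDN1 (-0.76, 5 libraries), MYOF (-0.73) and F3, tissue factor (-0.71). GADD45A, which is also a stress gene, rose from 65.2 to 119 FPKM (0.87 ± 0.070). The letters CATTCC, the core of the TEAD site, were searched on either strand of the promoters of tested list members present in RefSeq's table. They were found in 8 of 21 (38.1%), the gene of YAP itself among them. Of all 35116 promoters of the same 300 bases 14.03% held them, as did 10.6% of the promoters of tested genes. A match is letters in a window and not a bound site. The promoter of THBS1 is printed 5′ to 3′ because that gene had the largest fall of the list in all 6 libraries. It spans chr15:39580829-39581128 on the plus strand of GRCh38.p14, and the capitals mark the match on the minus strand, which begins at -46.
THBS1: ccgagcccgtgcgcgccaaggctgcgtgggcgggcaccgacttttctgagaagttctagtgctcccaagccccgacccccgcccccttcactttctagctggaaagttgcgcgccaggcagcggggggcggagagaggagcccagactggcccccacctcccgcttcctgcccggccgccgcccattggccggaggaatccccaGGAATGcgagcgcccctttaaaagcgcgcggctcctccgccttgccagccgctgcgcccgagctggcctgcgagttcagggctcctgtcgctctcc
For the actin list, the serum response element was found in 7 of 36 promoters (19.4%), against 1.29% of all promoters.

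Secreted growth factors and their pathways changed in part. In the TGF-beta pathway 7 of 10 tested genes fell and 1 rose, and 10 of 20 fell and 3 rose in the wider set. Beside TGFB2, the latent-form binding proteins LTBP1 (-0.63), LTBP4 (-0.36), LTBP3 (-0.82, 5 libraries) and LTBP2 (-0.38, 5 libraries) fell, as did the receptor TGFBR2, from 78 to 57 FPKM (-0.45 ± 0.059). SMAD7, the inhibitory SMAD, rose by 0.77 (5 libraries). In the IGF system 4 of 7 tested genes fell and none rose, and 6 of 10 fell and 1 rose in the wider set. IGFBP4 was one of the most abundant, with 518 FPKM in vehicle and 273 under rimonabant (-0.93 ± 0.075), and passed 2-fold only without rimonabant replicate 1. INSR, the insulin receptor, rose by 0.49 (5 libraries) while its substrates IRS1 and IRS2 (-0.35 ± 0.051) fell. Of 18 tested Wnt components of the wider set 9 fell and 4 rose. The coreceptors LRP5 (-0.85 ± 0.051) and LRP6 (-0.48) and the receptor FZD2 (-0.62, 5 libraries) fell together with DKK1, and FZD8 rose by 0.98 (5 libraries).

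EGFR ligands went opposite ways. AREG fell by 2.26, whereas HBEGF rose by 0.39 (5 libraries). Among the genes downstream of ERK, SPRY1 fell by 1.37 (5 libraries) and DUSP4 by 0.33, and IER3 and DUSP5 rose by 0.78 and 0.64. Over the whole list 5 of 18 tested genes rose and 5 fell, against 24.8% and 26.7% of all tested genes. In the wider set 8 of 22 rose and 10 fell, against 30.1% and 30.4%.

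Most mitotic genes fell. They encode the cyclins, kinases, kinesins and kinetochore proteins that carry a cell through division. Of 49 tested genes 41 fell and 1 rose (median -0.42, against -0.02 over all tested genes), and 59 of 68 fell and 1 rose in the wider set. CDC20, the activator of the anaphase-promoting complex, went from a mean of 128 FPKM in vehicle to 53.8 under rimonabant (-1.25 ± 0.060). PLK1, polo-like kinase 1, went from 26.2 to 11.3 FPKM (-1.22 ± 0.064), and KIF20A, a cytokinesis kinesin, from 43.3 to 19.4 FPKM (-1.16 ± 0.057). CCNB1, cyclin B1, fell from 127 to 66.3 FPKM (-0.93 ± 0.061), ASPM, a spindle pole gene, by 0.95, AURKA by 0.76, TROAP by 0.70, DLGAP5 by 0.67 and CCNB2 by 0.64. MKI67, the common proliferation marker, had 64.7 and 49.2 FPKM and did not pass (-0.40 ± 0.16). It passed in 7 of 19 alternatives, among them those without rimonabant replicate 1 (-0.21, edgeR adjusted p = 0.000802) or replicate 2 (-0.56, 0.00238) and with a gene length correction (-0.31, 0.0228).

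The cell cycle homology region, a short element of mitotic gene promoters with the letters TTTGAA, was found on either strand in 38 of the 57 mitotic promoters present in RefSeq's table (66.7%). It was found in 15.2% of all 35116 promoters and in 9.30% of the promoters of tested genes. The CCAAT box, with the letters CCAAT, was found in 44 of 57 (77.2%), against 34.6% of all promoters and 37.1% of those of tested genes. The promoters of CDC20 and PLK1 are shown 5′ to 3′ because these were the largest falls of the list. CDC20 spans chr1:43358731-43359030 and PLK1 chr16:23678639-23678938, both on the plus strand of GRCh38.p14, and each window runs from 250 bases before the gene's start to 50 after it. Capitals mark the element, which in CDC20 begins at -178 on the minus strand and at -65 on the plus strand, and in PLK1 at -29.
CDC20: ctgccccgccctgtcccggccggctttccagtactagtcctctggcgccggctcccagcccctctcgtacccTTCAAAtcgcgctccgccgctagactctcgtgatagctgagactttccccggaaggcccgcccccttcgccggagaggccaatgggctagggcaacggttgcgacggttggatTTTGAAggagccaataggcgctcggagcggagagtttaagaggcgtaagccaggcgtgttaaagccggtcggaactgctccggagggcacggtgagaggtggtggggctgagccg
PLK1: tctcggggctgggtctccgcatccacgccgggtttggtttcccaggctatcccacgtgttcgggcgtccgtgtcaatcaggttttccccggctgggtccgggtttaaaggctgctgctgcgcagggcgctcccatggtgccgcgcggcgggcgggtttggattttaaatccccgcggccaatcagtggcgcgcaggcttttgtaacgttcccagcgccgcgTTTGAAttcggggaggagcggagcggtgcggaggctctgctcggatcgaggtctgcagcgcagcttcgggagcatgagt

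G1 control and replication fork genes moved in both directions. Of 15 tested G1 control genes 4 rose and 4 fell, against 24.8% and 26.7% of all tested genes. In the wider set 7 of 23 rose and 6 fell, against 30.1% and 30.4%. Beside CDKN1A, the G1 to S regulators E2F1 (0.57 ± 0.067) and E2F7 (0.48) rose, with CCNE2 (0.71) and CCND2 (0.66) in the wider set (5 libraries). CCND1, cyclin D1, fell from 115 to 86.3 FPKM (-0.41 ± 0.048), and CDKN1B, the inhibitor p27, by 0.26. Replication fork genes split, with 7 higher and 9 lower of 23 tested, and 11 higher and 15 lower of 41 in the wider set, against the same shares of all tested genes. POLE fell by 0.49, and PCNA rose by 0.43, RPA2 by 0.38 and FEN1 by 0.34. The 7 tested MCM genes, of replication licensing and start, fell, from -0.17 for MCM3 to -0.27 for MCM5 and MCM10. MCM2, MCM3, MCM4, MCM6 and MCM7 each lost this call when certain single libraries were left out, drawn from the vehicle replicates and rimonabant replicate 3 (edgeR adjusted p of 0.0524 to 0.126). MCM2, MCM3 and MCM6 also lost it with the sum of counts as library size (edgeR adjusted p of 0.0882 to 0.127). Of the nucleotide synthesis genes 8 of 12 fell and 1 rose (median -0.26), and 12 of 17 fell and 4 rose in the wider set (median -0.30). CAD, the first enzyme of pyrimidine synthesis, fell from 37.1 to 23.3 FPKM (-0.67 ± 0.063), and DHODH by 0.74 (5 libraries). RRM2, a ribonucleotide reductase subunit, rose most (0.49 ± 0.061).

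The list of ATF4 targets and stress regulators, which includes the gene of ATF4 itself, had the highest median. ATF4 is the transcription factor of the integrated stress response and drives amino acid transport and synthesis. Of 18 tested genes 14 rose and 3 fell (median 0.56), and of 30 in the wider set 24 rose, 10 of these at least 2-fold, and 3 fell (median 0.66). Beside NUPR1, CHAC1, SESN2, TRIB3 and PPP1R15A, the rises were in PHGDH (1.45 ± 0.12) and CTH (1.30 ± 0.13), of serine and cysteine synthesis, and in the transcription factors ATF3 (1.23 ± 0.11) and DDIT3 (0.97 ± 0.089), each in 5 libraries. The cystine transporter chains SLC7A11 and SLC3A2 rose by 1.07 ± 0.098 and 0.91 ± 0.063, and SLC3A2 went from 43.2 to 81.3 FPKM. DDIT4, a listed target that hypoxia also induces, fell from 57 to 34.6 FPKM (-0.72 ± 0.072). The letters TGATGNAAT of the C/EBP-ATF site were in 0 of 24 promoters of the list. They were in 0.991% of all promoters and 0.480% of those of tested genes. At such low shares a count of 0 says nothing particular about the list. The search also fixed the last letter as T, so sites with another last letter were not counted. Of the 20 aminoacyl-tRNA synthetases 7 rose and 5 fell (8 and 7 without rimonabant replicate 1), with SARS and GARS at 0.52 and VARS at -0.38.

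Of 17 tested chaperones and stress genes of the endoplasmic reticulum 11 rose and 1 fell (median 0.20), and 14 of 22 rose and 2 fell in the wider set. DNAJB9 (1.19 ± 0.10, 5 libraries) and XBP1, from 17.9 to 33 FPKM (0.88 ± 0.069), rose most, followed by HERPUD1 (0.80 ± 0.068). The abundant CALR, calreticulin, rose by 0.23 ± 0.066, a call lost when any vehicle replicate was left out (edgeR adjusted p of 0.0504 to 0.072), and HSP90B1 fell by 0.26. Among the heat shock chaperones 5 of 17 rose and 2 fell (9 and 2 of 19 in the wider set), with HSPB1 lower by 0.57, and the rises beside HSPA1B were HSPH1 (0.44), HSPA4L (0.39), DNAJB1 (0.28) and DNAJA1 (0.25).

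The stress-induced secreted factor GDF15 rose by 1.39 ± 0.13, and SESN3, a sestrin, by 1.21 ± 0.11 (5 libraries each). Of genes linked to quiescence and FOXO factors 6 of 12 rose and 3 fell in the 6 lists (median 0.18), and 12 of 20 rose and 5 fell in the wider set (median 0.53). The rises included YPEL3 (0.85), CCNG2 (0.85) and ARRDC3 (0.79), each in 5 libraries, and YPEL5 from 10.7 to 18.9 FPKM (0.82 ± 0.067), and CITED2 fell by 0.56.

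NRF2 is the transcription factor of the oxidative stress response. The NRF2 list holds targets and also the genes of NRF2 itself and of its inhibitor, both of which rose. Of 18 tested genes of the list 13 rose and 2 fell (median 0.37), and 18 of 23 rose and 4 fell in the wider set. TXNRD1, thioredoxin reductase, went from 79.1 to 160 FPKM (1.01 ± 0.060), and OSGIN1 rose by 1.35 (5 libraries). The ferritin chains FTL and FTH1 (0.92 ± 0.072) rose together, as did HMOX1 (0.91, 5 libraries), SRXN1 (0.84, 5 libraries), GCLM (0.75), GCLC (0.68, 5 libraries) and NQO1 (0.54). ABCC1 and AKR1B1 fell by 0.48 and 0.46. The antioxidant response element, with the letters TGACNNNGC, was in 4 of 16 promoters, those of GCLM, TXNRD1, PGD and ME1. It was in 13.3% of all promoters and 15.5% of those of tested genes.

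Autophagy genes rose without an exception among those that passed. Autophagy delivers cytoplasm to lysosomes, where hydrolases degrade it. Of 14 tested genes 12 rose and none fell, and 17 of 23 rose in the wider set. Beside GABARAPL1, ULK1, the initiating kinase, rose from 4.90 to 8.56 FPKM (0.81 ± 0.058), SQSTM1, the receptor p62, from 47.9 to 83 FPKM (0.79 ± 0.051), and MAP1LC3B, the LC3B protein of the autophagosome, from 22.9 to 36.6 FPKM (0.68 ± 0.065). WIPI1 rose by 0.85 (5 libraries). Of 28 tested lysosome genes 19 rose and 2 fell (median 0.31), and 25 of 36 rose and 4 fell in the wider set. NEU1, a sialidase, rose by 0.81 ± 0.070, TPP1, a peptidase, by 0.71 ± 0.050 and CTSL, cathepsin L, by 0.69 ± 0.066. PSAP, prosaposin, was the most abundant of those that moved strongly, with 229 FPKM in vehicle and 365 under rimonabant (0.68 ± 0.067). None of the lysosome genes reached 2-fold, and MITF fell by 0.46 (5 libraries).

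Most cholesterol synthesis genes rose. Of 11 tested genes 9 rose and 1 fell (median 0.30), and of 21 in the wider set 18 rose and 2 fell (median 0.42). The early step gene HMGCS1 rose by 0.59 ± 0.072 (5 libraries) and MVK by 0.69 ± 0.069 (5 libraries). IDI1, of isoprenoid synthesis, rose from 11.3 to 23.5 FPKM (1.05 ± 0.067), and the late steps MSMO1 (1.15 ± 0.076), SC5D (0.75, 5 libraries) and DHCR7 (0.51) also rose. The exceptions were LBR (-0.34 ± 0.047), a nuclear envelope protein with reductase activity, and PMVK (-0.24 ± 0.083, 5 libraries). The call of PMVK was lost without rimonabant replicate 3 (-0.17), with the sum of counts as library size (-0.16) and with DESeq2 (-0.24). It was also lost with TXX-1-10 libraries in the fit (-0.24) and with a gene length correction, alone (-0.15) or with the replicate block (-0.16). Among genes of sterol uptake and control, INSIG1, which retains the SREBP complex in the endoplasmic reticulum, went from 12.4 to 26.2 FPKM (1.07 ± 0.076), NPC2, which moves cholesterol out of lysosomes, from 50.4 to 83.2 FPKM (0.72 ± 0.075), and STARD4, a sterol carrier, from 8.71 to 13.9 FPKM (0.67 ± 0.052). SOAT1, which esterifies cholesterol, rose by 0.25 ± 0.051. Of 12 tested genes of this list 8 rose, 1 fell and 3 did not pass (median 0.25). In the wider set 11 of 16 rose, 2 fell and 3 did not pass (median 0.26). SREBF1 had the largest fall (-0.73 ± 0.081).

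Fatty acid synthesis genes moved in both directions. Of 12 tested genes 4 rose and 6 fell, and 6 of 15 rose and 7 fell in the wider set. SREBF1, the regulator of fatty acid synthesis, is counted in the sterol control list and fell from 9.19 to 5.55 FPKM (-0.73 ± 0.081). Within the fatty acid list, FASN, fatty acid synthase, fell from 58.4 to 40.4 FPKM (-0.53 ± 0.061), as did ACACA, acetyl-CoA carboxylase (-0.64 ± 0.11). ACSS2 (0.45), FADS1 (0.28) and SCD (0.27) rose. The letters TCACCCCAC of the SREBP element were in 0 of 16 cholesterol synthesis promoters and in 1 of 14 of the sterol control list (7.14%). They were in 0.43% of all promoters and 0.400% of those of tested genes. At such low shares these counts say nothing particular about the lists.

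HIF1A, the oxygen-regulated subunit of HIF-1, fell from 125 to 49.9 FPKM (-1.32 ± 0.058), and EPAS1, its relative HIF-2 alpha, from 21.5 to 14.8 FPKM (-0.54 ± 0.056). EGLN1, the oxygen sensor that marks HIF-1 for degradation, rose by 0.46 ± 0.046. Of 18 tested HIF-1 targets 9 rose and 4 fell, and 11 of 23 rose and 8 fell in the wider set. The rises were led by NDRG1, SLC2A3 (0.90 ± 0.066), BNIP3L (0.62), P4HA2 (0.61) and KDM3A (0.51), and the falls by ANGPTL4, from 94.3 to 54.5 FPKM (-0.79 ± 0.073), and DDIT4. Of 17 tested glycolysis genes 11 fell and 3 rose (median -0.23), and 14 of 20 fell and 4 rose in the wider set. SLC16A3, the lactate exporter, fell from 53.5 to 32.4 FPKM (-0.72 ± 0.061), SLC2A1, the main glucose transporter, by 0.52, LDHA, from 242 to 171 FPKM (-0.50 ± 0.065), PFKP by 0.47 and PKM by 0.39. ENO2 rose from 37.9 to 64.9 FPKM (0.77 ± 0.049). The glucose transporters SLC2A1 and SLC2A3 thus went opposite ways.

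Immediate early factors mostly rose. Of 16 tested 11 rose and 4 fell (median 0.39), and 16 of 24 rose and 5 fell in the wider set. EGR1 went from 23 to 48.6 FPKM (1.08 ± 0.069), BHLHE40 from 10.2 to 21.6 FPKM (1.08 ± 0.057), and MAFF, JUND, JUNB and KLF4 rose by 0.89, 0.78, 0.76 and 0.68. The AP-1 member FOSL2 went the other way, from 39.2 to 19.4 FPKM (-1.02 ± 0.070), with its 2-fold call lost without rimonabant replicate 1. Of 13 tested cytokine genes and their regulators 7 rose and 3 fell, and 11 of 21 rose and 6 fell in the wider set. There, IL7R fell by 1.10, IL1B by 0.62 and RELB rose by 0.72 (5 libraries each). IL6, listed in 4 libraries, had 135 and 142 counts in vehicle and 52 and 51 under rimonabant, opposite in direction to CXCL8. In the interferon and MHC class I list 7 of 13 rose and 3 fell, against 24.8% and 26.7% of all tested genes. In the wider set 10 of 23 rose and 9 fell, against 30.1% and 30.4%. HLA-E (0.34) and IFIT2 (0.51) rose, and BST2 (-0.80), IFITM2 (-0.51) and IFIT1 (-0.49) fell (the last 3 in 5 libraries).

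Apoptosis genes gave 4 rises and 3 falls among 13 tested, against 24.8% and 26.7% of all tested genes. The wider set had 13 rises and 7 falls among 30, against 30.1% and 30.4%. The BH3-only genes BBC3 (1.35 ± 0.12, 5 libraries) and PMAIP1 (0.58 ± 0.056) rose, and so did the survival gene BCL2 (0.59 ± 0.072, 5 libraries). CASP4 rose by 0.68, and BIRC3, an inhibitor of apoptosis, fell by 0.65.

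The counts for ribosomal protein genes depended on rimonabant replicate 1. In the 6 lists 8 of 74 tested fell and none rose (median -0.05), and without that library 57 of 76 fell and none rose (median -0.17). The median log2 ratio to vehicle over the 74 genes was 0.16 in rimonabant replicate 1 and -0.21 and -0.14 in replicates 2 and 3. Oxidative phosphorylation genes, which are also short, gave 0.12, -0.18 and -0.13 in the same order, with 7 falls and 2 rises among 32 tested genes and 25 falls and 4 rises among 45 without replicate 1. Among the other lists, proteasome genes (0.18, -0.03 and -0.02), proteases and inhibitors (0.11, -0.09 and -0.07), mitochondrially encoded mRNAs (0.02, -0.13 and -0.15), tubulins (0.04, -0.12 and -0.10) and metallothioneins (0.02, -0.09 and -0.07) were also above 0 only in replicate 1. Apoptosis genes (0.11, -0.09 and 0.04) and EGFR ligands with ERK output (0.01, -0.01 and -0.08) had mixed signs too. With the sum of counts as library size the 6-library medians of ribosomal protein and oxidative phosphorylation genes turned to 0.02 and 0.02. Of 28 tested proteasome genes 4 rose and 1 fell, and 4 of 29 rose and 4 fell without replicate 1. Of 13 mitochondrially encoded mRNAs 1 rose and 3 fell, and 1 rose and 7 fell without replicate 1. MT1E, a metallothionein with close paralogs, went from 534 to 281 FPKM (-0.93 ± 0.089), whereas MT2A did not pass (0.09 ± 0.10).

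**Figure D4:**
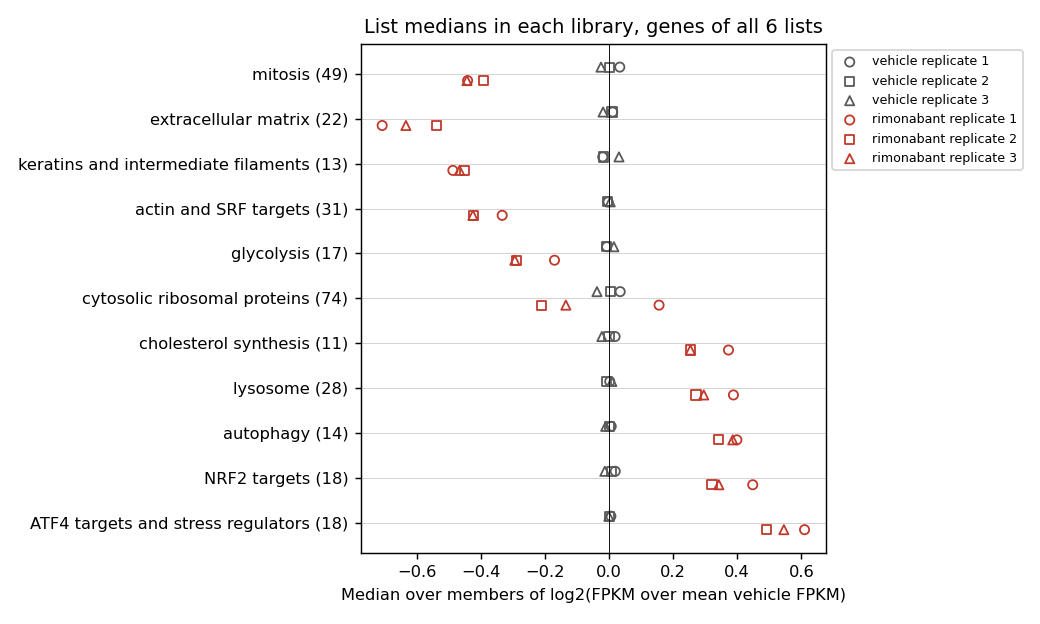
The x axis gives the median over the members of a list (number tested in brackets) of the log2 ratio of FPKM to the vehicle mean, with 1 symbol per library, grey for vehicle and red for rimonabant. Vehicle libraries lie within 0.05 of 0 and the rimonabant libraries lie on 1 side, except for ribosomal proteins, where replicate 1 lies at 0.16 and replicates 2 and 3 at -0.21 and -0.14.

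CNR1, which encodes the drug's own target, had 6, 10 and 12 counts in vehicle and 4, 4 and 3 under rimonabant, below the 1 FPKM required for testing. Without that filter it was lower, with an edgeR adjusted p of 0.0138, on these few counts. CNR2 had 4 counts in vehicle replicate 1 and 0 in rimonabant replicate 3, and GPR55 had 5 and 1. Of 9 tested genes of endocannabinoid metabolism and sensing in the wider set 1 rose and 4 fell, against 30.1% and 30.4% of all tested genes. TRPV1, the capsaicin receptor channel, rose from 2.27 to 3.84 FPKM (0.76 ± 0.099, 5 libraries), and FABP5, an intracellular carrier, fell by 0.47 (5 libraries). PBXIP1, which encodes the protein HPIP that the study's screen sought to lower, read 8.45 FPKM in vehicle and 11.9 under rimonabant and rose by 0.50 ± 0.068 (5 libraries, edgeR adjusted p = 2.3e-07).

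Values under TXX-1-10 are set beside these for a few genes chosen after their values were seen, with no test and no dose to match. IGFBP1 had 18.6, 17.2 and 19.2 FPKM under TXX-1-10, within the range of the vehicle libraries of 17.9 to 19.8, and 5.56 and 5.52 under rimonabant. CXCL8 read 26.1, 27.1 and 27.5 FPKM under TXX-1-10, below both rimonabant values, and AKAP12 read 42.2, 42.7 and 35.6 FPKM, between the vehicle and rimonabant values. CAV1 read 21, 20.8 and 22.9 FPKM and MMP1 23, 25.3 and 27.1 FPKM, both farther from vehicle than under rimonabant.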

How the data were processed

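RNA-seq libraries of vehicle and rimonabant groups were analysed, 3 per group as the labels name them. The authors aligned reads with HISAT2 2.0.5 and counted them with featureCounts 1.5.0-p3, per the submitters' processing notes, and the authors deposited raw counts and FPKM (fragments per kilobase of gene, scaled for depth) per gene in 1 list per library. The strand setting is not given in the sources used here, so overlapping genes on opposite strands can share reads. Each list ends inside a line.

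Counts were tested with edgeR 4.0.16 (quasi-likelihood test, R 4.3.3) for rimonabant against vehicle, on genes listed in all 6 or in 5 libraries with a mean FPKM of at least 1, with Benjamini-Hochberg adjustment over all tested genes. Library sizes were the totals implied by count, FPKM and length. These follow a size factor rather than the sum of counts, so depth is given as listed counts. "Changed at least 2-fold" requires a log2 fold change of 1 or more in either direction and an adjusted p under 0.05. These thresholds follow a figure legend of the study, whose methods instead name a p-value under 0.05 from Cufflinks. Recovery was tested on simulated data: with edgeR, 200 of 200 genes changed 3-fold were recovered in both fits, with 0 false calls. With limma on log2(FPKM + 1), 184 were recovered in the wider set. The simulated counts had 1 common dispersion and no gene length trend in rimonabant replicate 1, so they do not measure recovery in the real data.

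Named genes were the 12 largest rises and 12 largest falls of the 6 lists, the 8 and 8 largest among genes absent from rimonabant replicate 1, and members among the largest changes of each described list. The largest rises and falls were picked among genes changed at least 2-fold whose vehicle and rimonabant FPKM did not overlap. Of those with the 6 largest changes in a list not all are named, and further members are named for their role, after their values were seen. Members and lists were chosen with earlier results of these data known. Lists are described by counts and medians, with no test. Promoters (300 bases) came from RefSeq, GRCh38.p14. Alternatives were another scaling (TMM, DESeq2 size factors, sum of counts), DESeq2 1.42.0, limma 3.58.1 on log2(FPKM + 1) or log2(FPKM + 0.1), other filters, TXX-1-10 libraries in the fit, a replicate block, a gene length correction, no dispersion trend, and leaving out each library. Some members of the lists are counted but not reported by name here.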

Additional observations from a re-analysis of the deposited data

How the results depend on the processing

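Counts of genes that passed the adjusted p or changed at least 2-fold, in all or in either direction, stayed within 1.5 times the reported ones in 142 of 148 recomputed counts. The exceptions came from limma on log2(FPKM + 1), with 14 genes higher in the 6 lists (22 in the report) and 76 changed at least 2-fold, 30 higher and 46 lower in the wider set (140, 67 and 73), and from a mean FPKM of at least 5, with 85 changed and 33 higher in the wider set. The first adds 1 FPKM to genes of low level and the second tests fewer genes. Leaving out 1 library gave 47 to 52 genes changed at least 2-fold in the 6 lists, 20 to 22 higher and 26 to 30 lower, and 134 to 159 in the wider set, 64 to 71 higher and 70 to 89 lower. Of the 40 genes of the naming rule, SEL1L3 (0.96) and KLHL24 (0.88) fell short of 2-fold with limma on log2(FPKM + 1).

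The labels do not say whether the shared replicate numbers pair the samples. The deviations of same-numbered libraries correlated at -0.052, 0.045 and 0.042. These values cannot decide it, since the rimonabant deviations carry the gene length trend of replicate 1. With the replicate number as a block, 48 genes of the 6 lists and 145 of the wider set changed at least 2-fold, and 2099 and 5709 passed the adjusted p. Of the genes named in the text, the block alone changed the call of MKI67, which passed (-0.43, edgeR adjusted p = 0.035).

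Of 262 tested genes named in the text, 245 kept direction and call in every alternative and 4 changed sign, none of which passed the test in the report. With the sum of counts as library size, MTHFD2L was at 0.0098. Leaving out 1 library gave -0.00032 to 0.075 for ITGA3, -0.025 to 0.196 for MT2A and -0.044 to 0.047 for SNHG7. Of 94 list medians, the 66 of at least 0.1 in size kept their sign in every alternative, and 16 of the smaller ones did not. Precision is limited by 2 or 3 libraries per group and by the short list of rimonabant replicate 1.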

Other observations

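A group not described above, chosen after its values were seen and so given with no test, is that of the small nucleolar RNA host genes, the SNHG genes and GAS5, whose introns hold small nucleolar RNAs. In the wider set 10 of 12 tested members had an edgeR adjusted p under 0.05 and a lower level under rimonabant, against 30.4% of all tested genes, and none had a higher one (median log2 fold change -0.45, range -0.76 to 0.04). GAS5 went from a mean of 70.1 FPKM in vehicle to 48.2 in rimonabant replicates 2 and 3, and SNHG1 from 35.6 to 23.6 FPKM. SNHG6 and SNHG7 were the members that did not pass.

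Of the 251 tested genes of the wider set that are not protein coding, 8 changed at least 2-fold (3.19%, against 1.5% of all tested genes). Among them MIR137HG (-1.25) and MIR100HG (-1.04), hosts of microRNAs, were lower, and LUCAT1 (1.26) was higher. LUCAT1 is annotated as antisense, and its reads cannot be told apart from those of a partner on the other strand.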
